A study of Drosophila melanogaster with 8 samples.

Results

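Head RNA of flies in which the tim-gal4 driver expresses a transgene of the miR-959 to miR-964 cluster was compared with head RNA of flies that carry the driver without the transgene. The comparison rests on 4 of the 8 arrays in the series, 1 array per strain at ZT4, 4 h after lights on, and 1 per strain at ZT16. Probe sets, groups of short probes read as 1 value, were used where they reached a log2 intensity of at least 4 on at least 2 of these 4 arrays, and the array's own control probe sets were left out. This kept 7595 of 18769 probe sets, of which 6703 carried 1 gene symbol and stood for 6255 genes. A probe set that reached the level on both arrays of 1 strain only was kept too, so counts of 2-fold differences within a gene list depend in part on this filter. The lowest log2 value on each array was 2.32, and values below 3 are called near background here. At the edge of this rule, the second-highest of the 4 values was 4.0023 in the lowest probe set kept and 3.9995 in the highest one left out, and 670 probe sets reached the level on 1 array, 441 of them on the tim-gal4 control ZT16 array.

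The overexpression flies are labelled yw ; tim-gal4, UAS-mir-cluster/CyO and their controls yw ; tim-gal4/CyO. Both strains therefore share the yw background, the driver and the CyO balancer, and the overexpression strain carries the transgene on the same chromosome as the driver. The w1118 strain, which has neither driver nor balancer in its label, was read beside them, and the strain labelled w1118 ; mir959-962-KO is called the knockout. All flies were adults kept in 12 h of light and 12 h of dark for 3 days. A strain with the transgene and no driver was not analysed here, so an action of the miRNAs and any other genetic difference between the 2 stocks cannot be told apart. The arrays read messenger RNA, and the level of the miRNAs themselves was not analysed here.

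In the GAL4/UAS system the yeast activator GAL4 switches on transgenes placed behind its UAS binding sites, and tim-gal4 makes GAL4 in cells in which the clock gene timeless is active, among them clock neurons, photoreceptors, glia and fat body. MiRNAs are short RNAs that guide Argonaute proteins to messenger RNAs and usually lower their level or translation. In the fly head the molecular clock runs in neurons, glia, eyes and fat body, and the fat body joins feeding, insulin signalling, detoxification and immune defence.

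The tim-gal4 control ZT16 array carries transcripts of body tissue that heads should lack. Of 24 accessory gland genes, 21 reached a log2 value of 4 on it and none did on the other 3 arrays of the comparison. Of 24 gut genes the numbers were 10 and 0, and of 20 testis genes 15 against 1 on each of the others. The log2 of the summed level of the accessory gland genes was 14.3 on that array and 6.97 to 6.99 on the other 3, and of the 12 ovary genes all were near background on each array. The knockout ZT16 array shows the same markers. Probe sets at least 2-fold higher on both of these arrays than on each of the other 6 numbered 519, of which the filter kept 7 and 1 was at least 2-fold lower under overexpression at both times. Photoreceptor, neuron and glia markers, which heads should hold, were present on all 4 arrays. The ZT4 pair is therefore given first throughout.

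At ZT4, 252 probe sets (3.32%) were higher under overexpression by at least 2-fold and 272 (3.58%) were lower by as much. The ZT16 pair, which shares no array with the ZT4 pair, lay on the same side for 250 of the 252 and for 265 of the 272. Probe sets at least 2-fold higher at both times numbered 200 (2.63%), and those at least 2-fold lower numbered 183 (2.41%). Larger differences were mostly decreases: 58 probe sets were at least 4-fold lower at both times and 19 at least 4-fold higher. Over all probe sets kept, the median difference was 0.05 on the log2 scale at ZT4 and 0.21 at ZT16, so at ZT16 a value of 0.21 is the level of a typical probe set.

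With 1 array per strain and time no pair of arrays can be tested alone. A limma fit over all 8 arrays, with strain as block and time of collection, was used instead, and its error is how far the strains disagree in their change from ZT4 to ZT16. It called 1647 probe sets higher (21.7%) and 673 lower (8.86%) at an adjusted p under 0.05, a background share of 30.5% against which every count of limma calls below has to be read. Of the calls 71.0% were higher. That share was 52.4% when each array was centred on its median, 62.8% without the tim-gal4 control ZT16 array, 58.7% without the overexpression ZT16 array and 58.8% without both ZT16 arrays that carry body tissue markers. All 383 probe sets at least 2-fold apart the same way at both times were called by limma, and the words rose and fell are used below for genes that limma called.

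**Figure D1:**
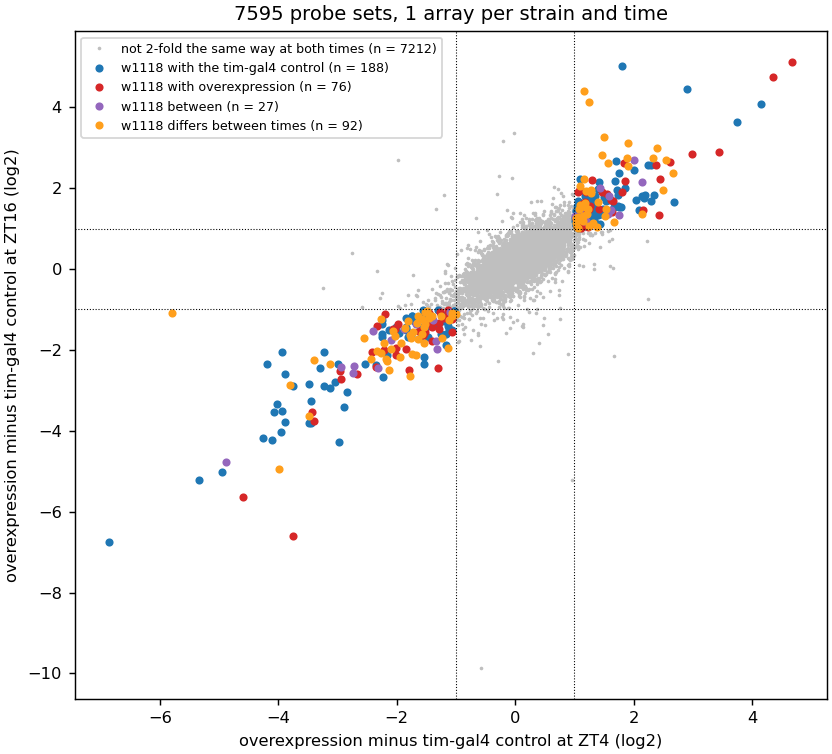
Each point is 1 of 7595 probe sets, placed by its log2 difference between overexpression and the tim-gal4 control at ZT4 (horizontal) and at ZT16 (vertical). Dotted lines mark 2-fold. Coloured points are the 383 probe sets at least 2-fold apart the same way at both times, coloured by whether w1118 lay with the control (188), with overexpression (76), between (27) or differently at the 2 times (92).

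W1118 was used to see which of the 2 driver strains lay apart from another strain. For each probe set and time, the level of w1118 was placed on the way from the control level to the overexpression level. Under 1/3 of the way, or beyond the control, it was counted with the control, over 2/3 or beyond overexpression it was counted with overexpression, and it was settled where both times gave the same answer. The control level enters both differences, so this is a description. Of the 383 probe sets, w1118 lay with the control in 188 (49.1%), with overexpression in 76 (19.8%), between in 27 and differently at the 2 times in 92. At ZT4 alone the numbers were 215, 100 and 68. Over all 6255 genes kept, whatever their difference, w1118 was settled with the control for 1987, with overexpression for 1569 and between for 137, and 2562 were unsettled. Counted by gene, with probe sets of 1 symbol only and 1 probe set per gene, 317 genes were at least 2-fold apart the same way at both times. For 158 of these genes w1118 was settled with the control, and the knockout at ZT4 also lay with the control for 142 of the 158. For the 54 genes with w1118 settled with overexpression, the knockout at ZT4 lay with overexpression in 42. The knockout label also names w1118, and the knockout counts were not made over all genes kept.

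The strains were also compared all together at ZT4. The overexpression strain stood at least 2-fold above each of the other 3 strains in 122 probe sets and at least 2-fold below each of them in 123. The tim-gal4 control stood apart in this way in 62 and 44 probe sets, w1118 in 15 and 43, and the knockout in 13 and 26. At both times at once the overexpression strain stood apart in 163 probe sets, the tim-gal4 control in 65, w1118 in 33 and the knockout in 25. The filter reads the overexpression and control arrays alone, so a probe set seen only in w1118 or the knockout is not counted. With a log2 level of 4 on at least 1 of the 4 ZT4 arrays instead, the numbers at ZT4 were 254 for overexpression, 116 for the tim-gal4 control, 67 for w1118 and 75 for the knockout.

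**Figure D2:**
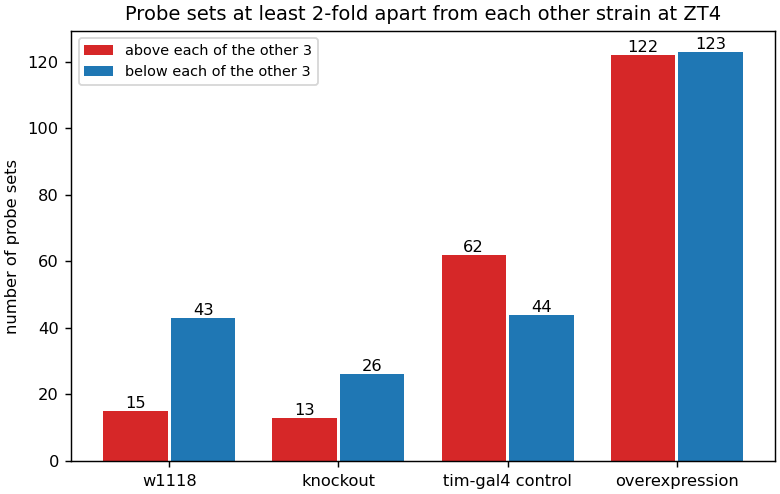
Bars give the number of probe sets in which 1 strain lay at least 2-fold above (red) or below (blue) each of the other 3 strains at ZT4, 1 array per strain. Overexpression has 122 and 123, more than the tim-gal4 control (62 and 44), w1118 (15 and 43) or the knockout (13 and 26), among probe sets kept by their level on the overexpression and tim-gal4 control arrays alone.

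The decreases with w1118 at the control's side included the steepest of all probe sets kept at ZT4, and several ended near background. Ance-4, of the angiotensin-converting enzyme family of peptidases, read 9.61 at ZT4 and 9.09 at ZT16 in the control and 8.01 and 7.74 in w1118. Under overexpression it read 2.75 and 2.32, so a transcript that was high in each of the other strains, the knockout included (8.12 and 7.87), was near background. Its log2 difference was -6.81 (SE 0.13, adjusted p = 5.05e-08 in limma). CG4306 went from 8.14 and 7.86 in the control and 7.63 and 7.72 in w1118 to 2.80 and 2.64. CG30002 went from 6.79 and 6.73 in the control and 6.77 and 6.81 in w1118 to 2.54 at both times. In both genes the overexpression arrays lay near background while 3 strains lay close together. CG11425 read 8.86 and 5.81 in the control, 9.4 and 8.30 in w1118 and 4.67 and 3.47 under overexpression, a gap that was wider at ZT4 (-4.20 on the log2 scale) than at ZT16 (-2.34). CG34166 remained well expressed at 7.68 and 8.67, against 11.71 and 12.01 in the control and 11.22 and 12.05 in w1118. The other 3 of the 8 steepest decreases of this kind, Cyp6a17, Cyp6t1 and BomBc3, are described with their families.

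Of the increases with w1118 at the control's side, CG33158 was the largest at ZT4. It read 3.39 and 3.29 in the control, 3.23 and 3.34 in w1118 and 7.14 and 6.93 under overexpression, a log2 difference of 3.69 (SE 0.14, adjusted p = 1.80e-06 in limma). CG11854 was near background in the control (2.37 and 2.36) and in w1118 (2.37 at both times) and read 5.27 and 6.82 under overexpression. Both transcripts were thus seen clearly only on the overexpression arrays of these 3 strains. Psf2, a subunit of the GINS complex of DNA replication, read 5.31 and 5.20 in the control, 5.31 and 5.34 in w1118 and 7.66 and 7.04 under overexpression. Gagr, a gene derived from the gag gene of a retrotransposon, read 4.36 and 3.99, 4.33 and 4.26, and 6.65 and 6.56 in the same order. Nazo, an effector of the antiviral STING pathway, was near background in the control (2.46 and 2.89) and in w1118 (2.89 and 2.49) and read 4.75 and 4.58 under overexpression. These 3 genes thus had control and w1118 levels within 0.45 of each other at each time and overexpression levels at least 1.69 above the control.

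Phk-3, of the family of small secreted chemosensory proteins, rose from 7.04 and 6.11 in the control to 9.28 and 8.68, with w1118 at 6.34 and 6.23. Adck1, which encodes a kinase-like protein of mitochondria, rose from 4.70 and 5.26 to 6.89 and 7.08, with w1118 at 4.95 and 5.31. CAH5, a carbonic anhydrase, rose from 2.93 and 6.85 to 5.61 and 8.51, with w1118 at 2.78 and 3.43. It differs from the others in that its ZT16 level was also high on both arrays that carry body tissue markers (6.85 in the control and 5.86 in the knockout), and the part of these in its ZT16 reading was not tested. Its call in limma (2.17, adjusted p = 0.0256) was lost without the control ZT4 array (1.29, adjusted p = 0.165) and without either overexpression array (adjusted p = 0.0820 for ZT4 and 0.152 for ZT16).

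**Figure D3:**
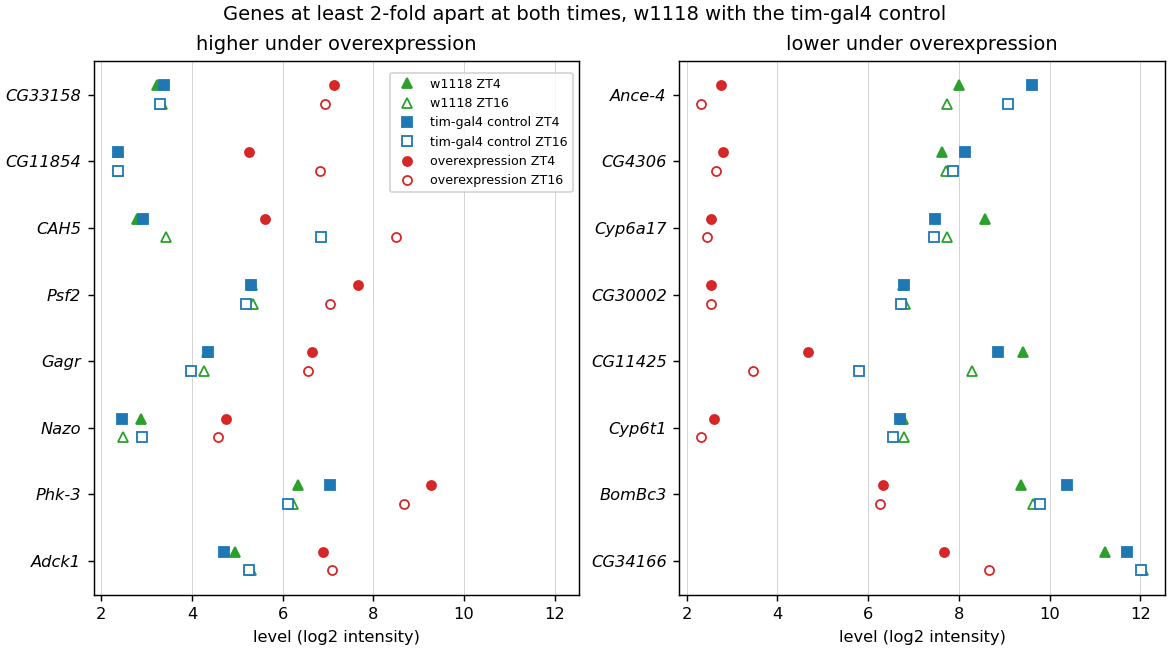
Levels (log2 intensity, horizontal) of the 8 largest increases and 8 largest decreases at ZT4 among genes at least 2-fold apart at both times with w1118 settled with the control. Each symbol is 1 array of w1118, the tim-gal4 control or overexpression, filled for ZT4 and open for ZT16. The red circles of overexpression stand away from the other symbols except for CAH5, whose overexpression ZT4 value of 5.61 lies below the ZT16 value of the control (6.85).

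Most genes coding for the proteasome, the protease complex that degrades ubiquitin-tagged proteins, rose. Of its 26 subunit genes on the array all 26 were kept, 25 were higher under overexpression at ZT4, and limma called 23 higher and 0 lower. The median difference was 0.81 on the log2 scale at ZT4 and 0.90 at ZT16, against 0.05 and 0.21 over all genes kept. Only 5 subunits were 2-fold up at both times, so the group is marked by a moderate step shared by most members. The median level of the 26 was 8.0 and 8.04 in the control, 7.91 and 7.90 in w1118, 8.11 and 8.23 in the knockout, and 8.85 and 8.95 under overexpression. W1118 was settled with the control for 24 of the 26 and with overexpression for none. Overexpression was the highest of the 4 strains at both times for 25 of 26 subunits (96.2%), against 28.2% of all genes kept. Without the tim-gal4 control ZT16 array limma called 16 of the 26 higher, and without both arrays with body tissue markers it called 19.

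Subunits of the catalytic core and of the regulatory particle both took part. In the core, Prosalpha6 read 7.35 and 7.63 in the control, 7.87 and 7.90 in w1118 and 9.09 and 9.19 under overexpression (log2 difference 1.65, SE 0.13, adjusted p = 1.00e-04 in limma). Prosbeta4 read 7.60 and 7.96 in the control, 7.74 and 7.90 in w1118 and 9.02 and 9.33 under overexpression, and Prosbeta3, Prosalpha7 and Prosbeta7 rose by 1.12, 1.07 and 1.03 in the limma fit. For each of these 5 core subunits both overexpression arrays lay above all 6 others. They are the 5 subunits at least 2-fold higher at both times, all with w1118 on the control's side, so this largely follows from their choice. The same share over all genes kept was not counted. In the regulatory particle, which recognises and unfolds tagged proteins, Rpn12 read 7.36 and 7.42 in the control, 7.56 and 7.53 in w1118 and 8.35 and 8.69 under overexpression, and Rpn1 rose by 1.01 on the log2 scale (SE 0.12, adjusted p = 0.000756 in limma). Rpn7, Rpt3 and Rpn8 were the 3 members not called, with limma differences of 0.31, 0.16 and 0.03.

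Few helpers of the proteasome were called. In a list of 13 of them picked after the subunit values were seen, limma called 2 higher. The ubiquitin protease Usp14, which sits on the regulatory particle, read 7.91 and 7.91 in the control, 7.78 and 7.78 in w1118 and 9.26 and 9.48 under overexpression, a rise of 1.47 (SE 0.14, adjusted p = 0.000221 in limma). Rad23, a shuttle for ubiquitin-tagged proteins, rose by 0.55 (adjusted p = 0.0147 in limma), a call lost without the tim-gal4 control ZT16 array (adjusted p = 0.0908) or without either overexpression array (0.114 for ZT4 and 0.0539 for ZT16). Among the others, the maturation factor Pomp read 7.64 and 7.52 in the control and 7.75 and 7.48 under overexpression, and cnc, whose product activates stress and detoxification genes, read 9.29 and 9.07 against 9.10 and 9.01. Of 8 subunits of the CCT chaperonin, a folding machine, also picked later, limma called 5 higher, with CCT6 at 6.92 and 7.01 in the control and 7.98 and 7.68 under overexpression.

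Of the genes for mitochondrial ribosomal proteins 49 of 69 rose, and w1118 often lay elsewhere than for the proteasome. This list of 69 was also picked after values were seen. Limma called none lower, 67 were higher at ZT4, the median difference was 0.63 at ZT4 and 0.73 at ZT16, and 9 members were at least 2-fold higher at both times. The median level was 5.98 and 5.95 in the control, 6.58 under overexpression at both times, 6.43 and 6.44 in w1118, and 6.31 and 6.35 in the knockout. The tim-gal4 control had the lowest of these medians. W1118 was settled with overexpression for 30 of the 69, with the control for 9, between for 8 and unsettled for 22, against 1569 of all 6255 genes kept with overexpression and 1987 with the control. Overexpression was the highest of the 4 strains at both times for 43 of the 69 (62.3%), so it also tended to lie above w1118. mRpS18C had the largest difference of the 69 at ZT16 (1.63 on the log2 scale) and mRpL19 rose by 1.28 in the limma fit. Without the overexpression ZT16 array limma called 32 of the 69.

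The nuclear genes of the respiratory chain were higher at ZT4 but close to all genes at ZT16. Of 50 kept, 47 were higher at ZT4 with a median of 0.42 on the log2 scale, while the ZT16 median was 0.21, as over all genes kept. Limma called 13 higher (26.0%, near the 21.7% of all probe sets) and 0 lower, and none was 2-fold apart at both times. COX7C, a cytochrome oxidase subunit, rose by 0.58 (SE 0.12, adjusted p = 0.00899 in limma), and ND-15, a subunit of complex I, by 0.63 (adjusted p = 0.00599 in limma). Both calls were lost without the overexpression ZT16 array (adjusted p = 0.0524 and 0.0587 in limma), and that of COX7C also without the overexpression ZT4 array (0.0706). SdhB had the largest ZT4 difference of the 50 (0.67) and was not called (adjusted p = 0.112 in limma). W1118 was settled with overexpression for 19 and with the control for 10. Beside these values stand those of muscle, whose 12 genes kept had median differences of 0.67 at ZT4 and -0.07 at ZT16, and whose summed level over all 16 list genes (log2) was 12.0 and 12.7 in the control and 12.5 on both overexpression arrays. Of these 16 genes 2 were near background on 3 of the 4 arrays and 0 on the control ZT16 array. In bulk heads fewer cells of a type and less RNA per cell cannot be told apart, and the part of muscle in the mitochondrial genes was not tested. Cytoplasmic ribosomal proteins gave a median of -0.03 at ZT4 with 1 of 29 called.

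**Figure D4:**
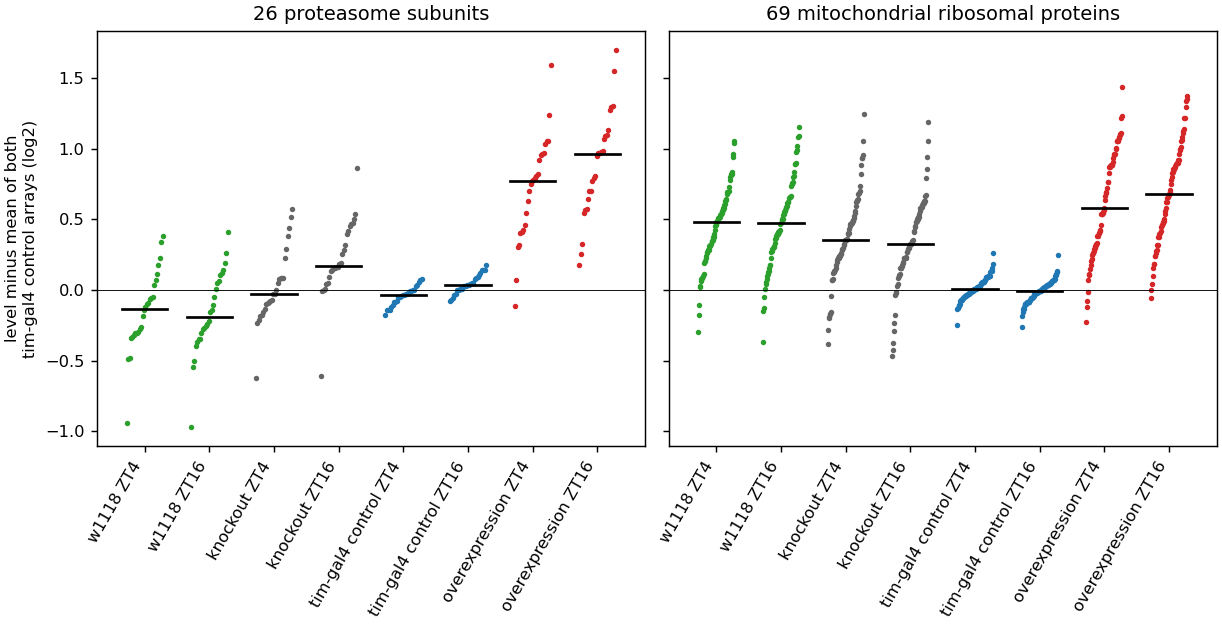
Each point is 1 gene on 1 array, given as its log2 level minus the mean of both tim-gal4 control arrays, and points within an array are sorted by value. Black lines are medians. In the left panel (26 proteasome subunits) overexpression lies above the other 3 strains, and in the right panel (69 mitochondrial ribosomal proteins) the tim-gal4 control lies below the other 3.

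Cytochrome P450 enzymes, which oxidise hormones, fatty acids and foreign compounds, were called lower more often than higher. Of 50 kept, 34 were lower at ZT4, limma called 24 lower and 7 higher, and 14 were at least 2-fold lower at both times against 2 higher. Over all genes kept, 2.45% were at least 2-fold lower and 2.62% higher at both times. The filter left out 31 of the 81 P450 genes on the array. Cyp6a17, Cyp6t1, Cyp6a2, Cyp6a8, Cyp4d1 and Cyp4s3 passed it through the control arrays alone, so these counts depend in part on the filter. The median difference was -0.47 at both times. Among the 14, w1118 lay with the control for 6, with overexpression for 5, between for 1 and differently at the 2 times for 2. The 4 largest decreases all had w1118 with the control. Cyp6a17, known for a role in temperature preference, read 7.48 and 7.45 in the control, 8.58 and 7.75 in w1118 and 2.53 and 2.44 under overexpression. Cyp6t1 read 6.70 and 6.54 in the control, 6.76 and 6.79 in w1118 and 2.60 and 2.32 under overexpression. Both were near background on both overexpression arrays only. Cyp6a2, an enzyme known for insecticide metabolism, fell by 3.64 (SE 0.13, adjusted p = 1.40e-06 in limma) and Cyp6a20, known for a role in aggression, by 3.62 (SE 0.16, adjusted p = 3.15e-06 in limma).

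In some of the other P450 decreases, though not in all, the control strain was the high one. Cyp6w1 read 9.31 and 9.30 in the control, 7.41 and 7.75 in w1118, 7.35 and 7.31 in the knockout and 7.10 and 7.29 under overexpression. Cyp6a13 read 8.16 and 8.32 in the control and between 5.87 and 6.37 on all other arrays. These 2 genes separate the tim-gal4 control from 3 strains rather than the overexpression strain from the rest. Cyp305a1 and Cyp9c1 were the 2 members higher at both times, at 7.65 and 6.4 in the control against 9.0 and 8.20, and 5.47 and 5.34 against 6.73 and 6.77, both with w1118 on the control's side. Cyp4g1, which makes the cuticular hydrocarbons of oenocytes in the body, read 4.16 at ZT4 and 12.92 at ZT16 in the control and 3.59 and 3.05 under overexpression, and its ZT16 value moves with the body tissue markers (knockout ZT16, 12.78).

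Glutathione transferases, which conjugate reactive compounds, showed no common direction. Of 27 kept, limma called 6 higher and 6 lower, and 4 of the E class were at least 2-fold higher at both times. GstE9 read 10.55 and 9.91 in the control, 10.60 and 9.03 in w1118 and 11.96 and 11.90 under overexpression, and GstE11 read 6.67 and 6.62, 5.88 and 5.77, and 7.88 at both times. For these 2 the overexpression strain was the high one. GstE6 read 6.46 and 6.32 in the control against 9.20 and 8.57 in w1118, 9.27 and 9.15 in the knockout and 8.89 and 8.55 under overexpression. GstE7 read 4.16 and 4.17 in the control against 5.72 to 7.55 on the other arrays. In these last 2 the control was the low strain. GstE6, GstE7 and GstE9 follow each other among the genes kept on chromosome arm 2R, with imd as the next one. Cross-hybridization between the related Gst genes was not tested.

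Members of the secreted peptidase families of Ance-4 and the neprilysins, which cut peptides outside cells, were also called lower more often than higher. Of 23 kept, limma called 11 lower and 3 higher, 6 were at least 2-fold lower at both times and the median at ZT4 was -0.94 on the log2 scale (-0.31 at ZT16). Over all genes kept, 2.45% were at least 2-fold lower at both times. The filter left out 21 of the 44 on the array. Ance-4 and Nepl12 passed it through the control arrays alone and Nepl4 through the overexpression arrays alone, so these counts depend in part on the filter. Ance-5 read 8.68 and 8.62 in the control, 7.41 and 7.07 in w1118 and 6.36 and 6.18 under overexpression, with w1118 between. Nepl12 read 5.93 and 5.59, 4.04 and 4.66, and 3.37 and 3.89 in the same order, and Nep7 5.59 and 6.07, 4.56 and 5.19, and 3.18 and 4.54. In all 3 genes the control was the highest and overexpression the lowest of these strains at both times. Of the 6 decreases w1118 was settled with the control for 1, Ance-4. Nepl4 was the 1 member higher at both times, at 3.95 and 2.40 in the control and 5.85 and 5.51 under overexpression.

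**Figure D5:**
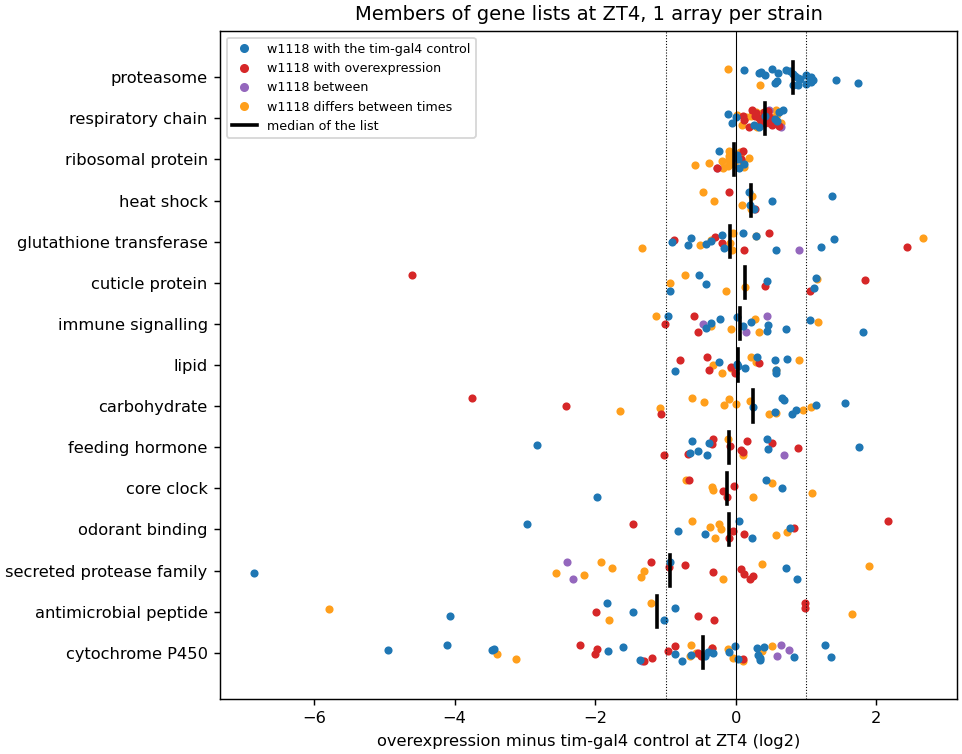
Log2 differences between overexpression and the tim-gal4 control at ZT4 for the members kept of 15 gene lists, 1 point per gene, with the median of each list as a black line and colours for the position of w1118. The proteasome has 25 of 26 points above 0 and a median of 0.81, and the P450 list has 34 of 50 below 0 and a median of -0.47.

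Several immune peptides fell while a few stress-signalling genes rose. Of 14 antimicrobial and Bomanin peptide genes kept, 5 were at least 2-fold lower at both times and none higher, limma called 8 lower and 2 (Drsl4 and Drsl5) higher, and the median was -1.12 at ZT4 and -0.53 at ZT16. For both Drsl4 and Drsl5 w1118 was settled with overexpression. The peptide genes Mtk (11.27) and DptB (8.65), neither called, were among those with their highest level of all 8 arrays on the control ZT4 array. Def had its highest level on the overexpression ZT4 array (8.02). The part of such single high readings in the ZT4 median was not tested. Bomanins are short secreted peptides made downstream of Toll. BomBc3 read 10.39 and 9.79 in the control, 9.37 and 9.64 in w1118 and 6.32 and 6.26 under overexpression. BomT3 read 8.79 and 8.82 in the control and 10.75 and 11.18 in w1118, and fell to 6.95 and 7.32. In both genes, and in BomS2 (12.18 and 12.31 in the control, 12.75 and 12.92 in w1118, 10.71 at ZT4 under overexpression), overexpression was the lowest of the 4 strains at both times. BomT2 read 11.82 and 11.61 in the control and 10.02 and 10.33 under overexpression with w1118 at 10.36 and 10.87, so there the control was the high strain. Drosomycin (Drs), an antifungal peptide, stood at 12.46 on the control ZT4 array and at 6.67 to 9.59 on the other 7. Its difference was -5.80 at ZT4 and -1.09 at ZT16, and in limma it was -3.44 with all arrays, -1.07 without the control ZT4 array and -5.81 without the control ZT16 array. That call was lost without either overexpression array (adjusted p = 0.197 for ZT4 and 0.0762 for ZT16).

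Among 24 genes of immune signalling kept, 3 were at least 2-fold higher at both times and limma called 7 higher and 4 lower. Diedel, a secreted peptide that modulates JAK/STAT and immune signalling, read 2.72 and 2.49 in the control and 2.35 and 2.61 in w1118, and 4.53 and 7.51 under overexpression. TotC, a stress-induced Turandot protein, read 8.15 and 6.25 in the control, 8.06 and 7.97 in w1118 and 9.32 and 10.65 under overexpression. Both differences were larger at ZT16 (5.02 and 4.40 on the log2 scale) than at ZT4 (1.81 and 1.17). The limma difference of Diedel, 3.41, was 1.94 without the overexpression ZT16 array. That of TotC, 2.78, was 4.19 without the control ZT4 array, and its call was lost without the control ZT16 array (1.38, adjusted p = 0.0614) or the overexpression ZT16 array (adjusted p = 0.145). The adaptor imd of the pathway named after it rose from 4.85 and 4.63 to 5.91 and 5.70, with w1118 at 4.51 and 4.54. The protease gene psh, which activates Toll, fell by 1.05 (SE 0.17, adjusted p = 0.00232 in limma), with w1118 between at ZT4 and with overexpression at ZT16. In the heat shock list 1 of 12 was called, Hsp27, which rose from 3.95 and 4.73 to 5.31 and 6.16 with w1118 at 3.96 and 4.49.

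Hormones of feeding and energy balance included 2 large differences with w1118 on the control's side, one in each direction. Limostatin (Lst), a peptide of the corpora cardiaca that suppresses insulin secretion, read 9.61 and 9.59 in the control, 8.94 and 9.50 in w1118, 9.06 and 9.30 in the knockout, and 6.78 and 6.54 under overexpression (log2 difference -2.94, SE 0.19, adjusted p = 2.71e-05 in limma). ImpL2, a secreted protein that binds insulin-like peptides and restrains their signal, read 8.48 and 8.16 in the control, 7.73 and 7.98 in w1118, 8.10 and 8.02 in the knockout, and 10.23 and 10.54 under overexpression (2.06, SE 0.17, adjusted p = 0.000121 in limma). Neither gene's overexpression arrays overlapped the 6 others. Both genes are named for their large differences, so this follows in part from their choice, and the same share over all genes kept was not counted. Of the 22 genes kept limma called 5 higher and 4 lower. The insulin-like peptide gene Ilp5 rose by 0.77 with w1118 (7.49 and 6.96) at the overexpression level (7.36 and 7.0), and Ilp2 rose by 0.69 with w1118 between. Both calls were lost in limma without the overexpression ZT16 array (adjusted p = 0.0760 and 0.0818), and that of Ilp5 also without the control ZT4 array (0.0599). AkhR, the receptor of the adipokinetic hormone that mobilises fat and sugar stores, fell by 0.85 with w1118 at the overexpression level.

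Genes of carbohydrate metabolism went both ways, and w1118 was settled with the control for none of the 5 genes at least 2-fold lower at both times and with overexpression for 3 of them. Of 23 genes kept, 5 were at least 2-fold lower and 1, the maltase gene Mal-B1 (3.64 and 4.05 in the control, 4.78 and 5.16 under overexpression, a call lost in limma without the overexpression ZT16 array at an adjusted p of 0.0753), higher at both times, and limma called 6 lower and 8 higher. The alpha-glucosidase tobi, a target of brain insulin, read 6.57 and 9.26 in the control, 6.73 and 9.87 in the knockout, 2.65 and 2.44 in w1118 and 2.82 and 2.65 under overexpression. It is the probe set at least 2-fold apart at both times that was also high on both arrays with body tissue markers, and its gap was already -3.75 on the log2 scale at ZT4. Pepck1, which starts gluconeogenesis, read 12.76 and 13.03 in the control, 12.48 and 12.43 in the knockout, 10.49 and 10.50 in w1118 and 10.34 and 10.97 under overexpression. In both genes the tim-gal4 control and the knockout lay together, away from w1118 and overexpression. Hex-C and the maltase Mal-B2 fell by 1.40 and 1.32 in the limma fit. W1118 was settled with overexpression for Mal-B2, and for Hex-C it lay between at ZT4 and with overexpression at ZT16. Pepck2 read 3.09 and 4.14 in the control, 2.52 and 2.76 in w1118 and 4.65 and 5.07 under overexpression, and Pfk, the controlling enzyme of glycolysis, rose by 0.93 (SE 0.14, adjusted p = 0.00176 in limma).

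No gene of lipid metabolism was 2-fold apart at both times, while limma called 6 of 23 higher and 2 lower. The fatty acid synthase FASN1 read 12.69 and 12.46 in the control, 12.59 and 12.69 in w1118 and 11.83 and 11.68 under overexpression. The triglyceride lipase bmm, by contrast, rose by 0.56 (SE 0.15, adjusted p = 0.0226 in limma), with 8.37 and 8.74 in the control and 9.10 and 9.13 under overexpression. That call was lost without the overexpression ZT4 array (0.36, adjusted p = 0.188 in limma) and without either control array (adjusted p = 0.0903 for ZT4 and 0.0785 for ZT16). Lsd-2, a coat protein of lipid droplets, fell by 0.71 with w1118 on the overexpression side, a call lost without the overexpression ZT4 array (adjusted p = 0.0521 in limma). Of the 8 fat body markers kept 2 were called lower, and the storage protein Lsp2 read 9.72 and 9.45 in the control, 10.36 and 11.33 in w1118, 12.37 and 12.76 in the knockout, and 5.83 and 6.85 under overexpression. The yolk protein gene Yp1 stood at 14.84 or above on each array.

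In the core clock, 13 of 14 genes were kept, and limma called 4 higher, 1 lower and 8 neither. Pdf, the neuropeptide of the ventral clock neurons, read 6.23 and 5.84 in the control, 7.24 and 7.39 in w1118, 6.91 and 6.79 in the knockout and 4.26 at both times under overexpression (log2 difference -1.77, SE 0.15, adjusted p = 0.000145 in limma). Overexpression was the lowest of the strains at both times, by at least 1.58. Fbxl4, an F-box protein, read 5.30 and 5.0 in the control, 5.93 and 6.51 in w1118, 7.11 and 7.26 in the knockout and 6.38 and 7.05 under overexpression, so the control was the low strain. The photoreceptor protein cry rose by 0.78 (SE 0.16, adjusted p = 0.00827 in limma), from 7.86 and 5.66 to 8.52 and 6.57, with w1118 at 7.39 and 4.84. The kinase gene dco rose by 0.41 and slmb, which targets PER for degradation, by 0.45. The call of cry was lost without the overexpression ZT16 array (adjusted p = 0.0928 in limma). Those of dco and slmb were lost without any 1 of the 4 arrays compared (adjusted p from 0.0967 to 0.180 and from 0.0762 to 0.138 in limma), and that of dco also without either knockout array (0.0630).

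The transcriptional loop itself was not called. The repressor genes per and tim had limma differences of 0.26 (SE 0.19, adjusted p = 0.330) and -0.23 (SE 0.47, adjusted p = 0.75). Their ZT4 levels were 4.53 in the control and 4.51 under overexpression for per and 7.66 and 6.99 for tim. A second tim probe set differed by -0.11 at ZT4 and 0.43 at ZT16. Of the activators, Clk had a difference of 0.45 (adjusted p = 0.173 in limma) and cyc -0.13 (adjusted p = 0.525 in limma). At ZT4 vri, a repressor of Clk, read 6.35 in the control and 5.64 under overexpression. The regulators vri, Pdp1 and cwo had limma differences of -0.43 (SE 0.36), -0.24 (SE 0.20) and 0.03 (SE 0.24), and the PDF receptor gene Pdfr -0.14, none of them called. A second cwo probe set differed by -0.82 at ZT4 and 0.51 at ZT16. The wide SEs of tim and vri leave room for differences that limma would not call. At ZT16 each of per, tim, Clk, cwo, cyc and Pdfr was higher under overexpression, by 0.05 to 0.65 on the log2 scale, with a typical probe set at 0.21. DIP-theta, annotated over the cluster, read 5.28 and 5.10 in the control and 5.01 and 5.08 under overexpression and was not called (adjusted p = 0.517 in limma).

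Of head transcripts known to cycle, NLaz, a lipocalin, fell by 0.90 with w1118 between, a call lost without the overexpression ZT16 array (adjusted p = 0.0676 in limma), and CG42329 read 7.42 and 3.63 in the control, 7.52 and 4.37 in w1118 and 5.14 and 2.92 under overexpression. Its limma difference of -1.50 was -0.95 without the overexpression ZT4 array. Odorant-binding proteins, which carry small molecules in sensory and other tissues, held 3 genes at least 2-fold apart at both times among 19 kept. Obp99a read 6.33 and 10.72 in the control, 8.56 and 10.44 in w1118 and 3.35 and 6.44 under overexpression, and kept a ZT16 level above ZT4 in each strain. Obp99b went the other way, from 9.90 and 9.99 in the control to 12.06 and 11.45, where w1118 (11.74 and 12.54) and the knockout (11.93 and 11.56) also lay. For Obp99a the overexpression strain thus lay apart from the other 3, and for Obp99b the control did. Obp8a, the third, read 5.76 and 4.97 in the control, 4.30 and 3.88 under overexpression and 4.44 and 3.96 in w1118.

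Cuticle genes gave 5 members at least 2-fold higher and 1 lower at both times among 15 kept, against 2.62% and 2.45% of all genes kept. The filter left out 107 of the 122 on the array. Cpr100A passed it through the overexpression arrays alone and Osi6 through the control arrays alone, so these counts depend in part on the filter. The lower one, Osi6 of the Osiris family, read 7.85 and 7.99 in the control, 3.25 and 2.34 under overexpression and 2.33 to 2.34 on the other 4 arrays, so it was seen in the control strain and, faintly, on 1 overexpression array. Cpr62Bb read 4.05 and 4.01 in the control against 5.89 to 7.27 on the other 6. Cpr72Ec and Cpr47Ee rose by 1.70 and 1.21 in the limma fit, and Cpr100A and Osi2 by 1.47 and 1.22. W1118 was settled with the control for Cpr47Ee and Osi2. For Cpr72Ec w1118 lay with the control at ZT4 and between at ZT16. For Cpr100A w1118 was settled with overexpression, and the control was the low strain. Cpr72Ec was at 1.11 without both ZT16 arrays with body tissue markers. The call of Cpr100A was lost without the overexpression ZT16 array (0.87, adjusted p = 0.116 in limma) and without either control array (0.0558 for ZT4 and 0.0538 for ZT16). That of Osi2 was lost without the control ZT16 array (0.79, adjusted p = 0.257 in limma), either overexpression array (0.240 for ZT4 and 0.0764 for ZT16) or either knockout array (0.0547).

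The remaining genes named for w1118 settled with overexpression follow, and in the increases the knockout lay away from the control too. The largest increase was CG11458, at 4.14 and 3.92 in the control, 8.49 and 8.66 under overexpression and 8.92 to 10.16 in w1118 and the knockout. CG14419 read 2.95 and 2.93 in the control, 6.39 and 5.82 under overexpression and 8.95 to 9.61 in the other 2 strains. CG3588, beside it among the genes kept on the X chromosome, read 2.66 and 2.64 against 5.04 and 5.21, with 5.50 to 6.37 in the other 2. The amino acid transporter gene path read 5.81 and 6.4 in the control, 8.79 and 9.24 under overexpression, 9.80 and 10.17 in w1118 and 8.73 and 8.67 in the knockout. In each of these genes both control arrays lay below all 6 others. For the overexpression and w1118 arrays this largely follows from how the genes were picked. CG4000 read 5.59 and 7.04 in the control and 8.01 and 8.38 under overexpression, with w1118 at 9.47 and 8.86. Its limma difference of 1.88 was 1.06 without the control ZT4 array, and its call was lost without the overexpression ZT16 array (adjusted p = 0.0749).

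Among the decreases of this kind, Lime, which links immune cells and metabolism, read 5.29 and 4.85 in the control and 2.33 on all other 6 arrays. CG3513 read 6.12 and 6.76 in the control, 2.72 and 3.00 under overexpression and 3.19 and 3.79 in w1118, with the knockout at 5.60 and 5.76. CG11741 read 5.67 and 5.45 in the control, 2.73 at both times under overexpression and 2.82 and 2.98 in w1118, with the knockout at 5.78 and 4.84. For these last 2, as for tobi and Pepck1, the knockout went with the control, whereas for Lime and for the serpin gene Spn88Eb (8.20 and 7.05 in the control, 5.79 to 6.4 on the other 6) it did not.

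The driver, the transgene and the balancer all sit on the second chromosome by the labels, and genes at least 2-fold apart at both times were not limited to it. They made up 5.15% of the probe sets kept on arm 2L, 6.30% on 2R, 5.23% on 3L, 4.89% on 3R and 3.18% on the X chromosome, against 5.04% of all probe sets kept, and none of 67 on chromosome 4. The share was 5.64% among the 905 probe sets not placed on an arm. Among neighbouring genes kept, 19 runs of 2 or more genes moved the same way, holding 40 genes, such as BomS2 with BomT2 and BomT3 with BomBc3, each pair lower, and GstE6, GstE7, GstE9 and imd, higher. Of 6236 neighbouring pairs of genes kept, 32 had both genes at least 2-fold apart at both times, 21 the same way and 11 opposite ways. Of all genes placed on an arm 5.06% were 2-fold apart at both times, and whether the pairs exceed what that share alone would give was not tested.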

How the data were processed

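RNA of fly heads was read on Affymetrix Drosophila Genome 2.0 arrays. The deposited values are log2 intensities, made by the authors with GCRMA per the submitters' processing notes (version not given in the sources used here), a method that corrects background and normalizes arrays together. No counts exist, and 1 array per strain and time limits the precision. From these values, differences between overexpression and the tim-gal4 control were computed per time, and limma 3.58.1 in R 4.3.3 gave two-sided moderated tests with 3 residual degrees of freedom, whose p-values were adjusted by Benjamini-Hochberg across all 7595 probe sets kept. The p-values measure only the spread between these arrays. Figures were drawn with matplotlib 3.10.9 and tables made with pandas 2.3.3 and numpy 2.4.6, in Python 3.11.15.

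Gene symbols came from the platform annotation, updated through RefSeq gene IDs for 13544 of 13647 probe sets with 1 symbol. RefSeq Release 6 gave chromosome arms. Of the 18952 rows, 183 are control probe sets. The probe set with the highest mean over the 4 arrays stands for a gene. Named were, by rule, the 8 largest ZT4 differences per direction among genes 2-fold apart at both times with w1118 settled with the control and the 8 with w1118 settled with overexpression, all core clock genes, and up to 4 members of each list with the largest ZT4 difference. Others were named to complete a count or beside these, after their values were seen. The members and the 32 lists were chosen with earlier results of these data known, and the mitochondrial ribosome, proteasome helper and chaperonin lists after the values were seen. Alternatives covered the filter, the fold, normalization, moderation, 1 probe set per gene and left-out arrays.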

Additional observations from a re-analysis of the deposited data

Results flagged for a closer look

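A difference between overexpression and the tim-gal4 control of at least 2-fold in opposite directions at the 2 times was found in 4 probe sets, and the difference between the times was not tested, with 1 array for each reading. The antibacterial peptide gene DptB was lower by -1.98 on the log2 scale at ZT4 and higher by 2.68 at ZT16, since it read 8.65 and 4.14 in the control and 6.67 and 6.83 under overexpression. The immune peptide gene Mtk was at -1.21 and 1.83, with 11.27 and 8.72 in the control and 10.06 and 10.54 under overexpression. For both immune genes it was the control, not overexpression, that differed between its 2 arrays by over 2 on the log2 scale. GstD2, a glutathione transferase, was at -1.34 and 1.49, with 4.73 and 3.40 in the control and 3.39 and 4.88 under overexpression. A probe set with no single gene symbol was at 1.67 and -2.15, and it read 11.10 on the tim-gal4 control ZT16 array and 9.82 on the knockout ZT16 array, the 2 arrays that carry body tissue markers.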

How the results depend on the processing

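The limma call counts and the 2-fold counts both moved with the processing. Without a filter on low values limma called 448 higher and 200 lower, and 15 proteasome, 30 mitochondrial ribosome and 13 P450 genes (lower). Without both ZT16 arrays with body tissue markers it called 938 higher, and with median-centred arrays, chosen after seeing the data, 1119 lower. Leaving out each array in turn gave 593 to 1655 higher and 389 to 682 lower, with the lowest counts without an overexpression array (593 and 417 without ZT16, 1015 and 389 without ZT4) and 858 higher without the tim-gal4 control ZT16 array. For the lists these ranges were 16 to 23 proteasome, 32 to 47 mitochondrial ribosome and 19 to 24 P450 genes. A log2 level of 6 gave 165 higher and 181 lower at ZT4 and 129 higher at both times. At 1.5-fold, 745 were higher and 379 lower at both times, and at 3-fold 44 and 79. With w1118 within 2-fold of 1 strain and at least 2-fold from the other, it lay with overexpression in 50. With a log2 level of 4 on 1 of the 4 ZT4 arrays the knockout stood apart in 75. The cause of these changes was not tested. Left-out arrays and the log2 level of 6 used fewer arrays or probe sets, while the limma run without a filter used all 18769 probe sets. The other fold cutoffs and the median centring used the same probe sets and arrays as the main run. Of the 124 named or listed single genes that limma called, 45 kept the call under every alternative run, among them Ance-4, CG4306, CG33158, Cyp6a17, Cyp6t1, Cyp6a2, Cyp6a20, BomBc3, Lst, ImpL2, Pdf, Prosalpha6, Usp14, Osi6, Pepck1 and path. Another 40 lost it only without a filter, and 39 under another alternative, and none reversed. The replicate number, 1 in every group, pairs no arrays. With time as the block on the 4 arrays compared alone, limma called 1689 higher and 725 lower.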

Other observations

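Cyp6a17 and Cyp6a23 are closely related P450 genes, and their probe sets went different ways across the strains. Cyp6a23, picked after its values were seen, read 4.97 and 4.31 in w1118, 4.79 and 4.8 in the knockout, 7.41 and 6.98 in the driver control and 7.71 and 7.62 under overexpression. Cyp6a17, described above, was near background under overexpression alone. The driver control thus had both transcripts, the overexpression strain only Cyp6a23 at a clear level, and w1118 and the knockout more Cyp6a17 than the control.

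Nplp3, a neuropeptide-like precursor that lies beside another gene lower at both times among the genes kept, was also picked after its values were seen. It read 12.42 and 11.77 in w1118, 12.29 and 11.99 in the knockout, 11.59 and 11.13 in the driver control and 10.07 and 9.75 under overexpression, where it was the lowest of the 4 strains at both times. KaiR1D, a glutamate receptor subunit gene next to TotC among the genes kept, stood at 2.71 and 2.59 in the driver control, at 4.37 and 4.28 under overexpression and at 5.59 to 6.14 in the other 2 strains. Both of its driver control arrays were near background.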
